A study of Equus caballus with 4 samples.

Results

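The fibroblast growth factors (FGF) FGF2, FGF7, FGF10 and FGF11, the FGF receptors FGFR1, FGFR2, FGFR3 and FGFR4, hepatocyte growth factor (HGF) and its receptor MET were followed in horse muscle cells. These 10 genes, of 15110 gene symbols on the array, were found by their gene name among the non-control probes, and they carried 34 probes of 60 bases. Equine satellite cells (ESC), the stem cells of skeletal muscle, came from m. semitendinosus of young stallions and were examined on day 3 of differentiation. The HMB-treated cells were kept with 50 µM HMB (β-hydroxy-β-methylbutyrate, a metabolite of leucine) for 24 h and met 3 mM H2O2 in the last 1 h, and the control cells met H2O2 without HMB, so oxidative stress was common to both groups. Each of 4 arrays carried RNA of HMB-treated cells labelled with Cy5 beside control RNA labelled with Cy3, and each array was 1 replicate. The comparison asks which transcripts differ with HMB under that stress.

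No array had the dyes swapped, so treatment and dye cannot be told apart. The control carries the same replicate number in the labels of every array, and the methods went on with a selected culture, so the replicates need not be separate horses and their spread may be partly technical. The ratios given below are log2 of Cy5 over Cy3, so that a value above 0 means a higher signal with HMB. Signals are the scanner software's processed signals in arbitrary units, after background subtraction and dye normalization. A probe was tested if at least 1 channel was well above background, as marked by the scanner software, on all 4 arrays. It was called if limma's Benjamini-Hochberg adjusted p over all 24669 tested probes was 0.05 or less and the fold change (FC) was 1.3 or more. A gene with several tested probes is given by the one with the highest mean signal.

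Fibroblast growth factors are secreted proteins that bind a receptor tyrosine kinase together with heparan sulphate and drive the Ras-ERK chain. In muscle, FGF2 keeps myoblasts dividing and holds back differentiation, and HGF, through MET, wakes satellite cells from quiescence. FGF7 and FGF10 are made by mesenchymal cells and act mainly on a splice form of FGFR2 found in epithelia, whereas FGF11 belongs to the intracellular FGF that are not secreted and do not depend on the receptors.

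The probes show which stretch of each transcript was read. Probe positions are those of the files on the EquCab1 build, and the files do not state the exon or the isoform. The 5 FGF2 probes lay within chr2:90748062-90748125 on the minus strand, each shifted by 1 base, and therefore read nearly the same sequence. The outermost probes are shown, with the 56 bases shared by all 5 in capitals.
FGF2 probe A_69_P003591: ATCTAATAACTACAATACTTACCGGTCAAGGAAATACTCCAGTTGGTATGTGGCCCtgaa
FGF2 probe A_69_P003595: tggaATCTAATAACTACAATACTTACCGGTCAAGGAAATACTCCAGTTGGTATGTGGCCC

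The FGF7 probes were spread more widely over the minus strand of chromosome 1, but all except A_69_P003946 overlap at least 1 other. Probe A_69_P005178 lay at chr1:137808335-137808394, and A_69_P005176 at chr1:137753155-137808345, a span of 55191 bases on the genome for a probe of 60 bases, so that it joins separate stretches of the gene. They are shown because the former lies on 1 side of that gap and the latter crosses it. The 11 bases that they share, which A_69_P005177 holds too, are in capitals.
FGF7 probe A_69_P005178: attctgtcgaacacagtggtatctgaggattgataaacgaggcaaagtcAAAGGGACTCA
FGF7 probe A_69_P005176: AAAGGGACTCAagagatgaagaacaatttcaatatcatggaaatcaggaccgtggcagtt

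HGF had a single probe, at chr4:25922942-25923001 on the minus strand, and all that follows on HGF rests on it.
HGF probe A_69_P078431: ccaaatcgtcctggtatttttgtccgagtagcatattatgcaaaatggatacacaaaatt

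Of the 10 genes, 8 had at least 1 tested probe. FGF2, FGF7 and HGF were called higher with HMB, FGFR2 was called lower, and FGF11, FGFR1, FGFR3 and MET were tested and not called. The 4 called genes stand beside 27.7% of all 8818 tested symbols, of which 10.5% were called higher and 17.1% lower. The median log2 ratio of the 8 tested members was 0.05, and that of all tested symbols was -0.08. FGF10 and FGFR4 were not tested, because their probes did not reach the background limit on all arrays in either channel. Among the 34 probes, 20 were tested, 11 of them were called higher and 2 lower. Of all tested probes, 28.6% were called, 12.1% higher and 16.4% lower. The called member probes are not separate measurements, because the FGF2 probes overlap, and so do the FGF7 probes other than A_69_P003946. The signal of 10 probes was not well above background in both channels of every array, so that their ratios say nothing about the gene. A ratio of exactly 0 was listed for 33 of the 136 member ratios, and neither channel was well above background in any of these 33. As the arrays read bulk RNA, fewer cells of a type and less RNA per cell cannot be told apart in any of these values.

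**Figure D1:**
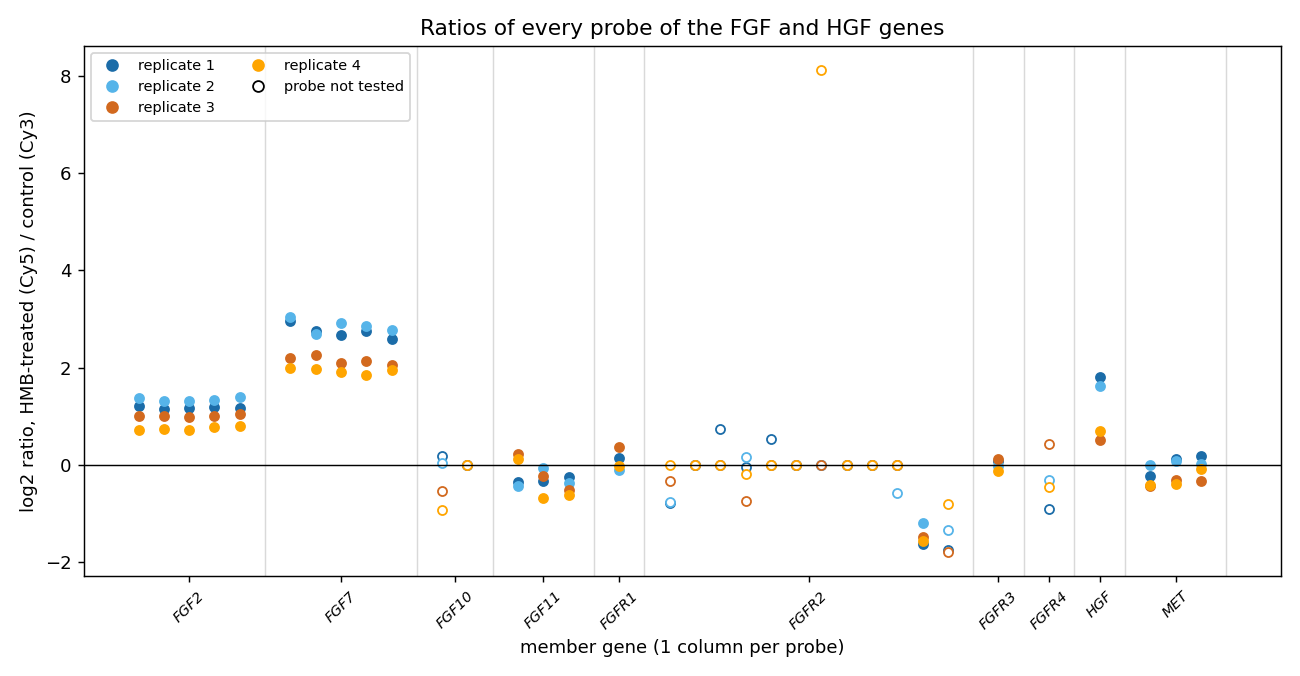
The log2 ratio of HMB-treated (Cy5) over control (Cy3) is plotted for each of the 34 probes, with 1 column per probe, 1 point per array and open points for probes that were not tested. The FGF2, FGF7 and HGF points all lie above 0, those of FGFR1 and FGFR3 lie around 0, and a single FGFR2 point of replicate 4 stands at 8.12.

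FGF7, the keratinocyte growth factor, had the largest rise of the 10 genes, and its 5 probes moved together. The control signal of probe A_69_P005178 was 182, 163, 329 and 278 on replicates 1, 2, 3 and 4. The HMB signal of that probe was 1222, 1174, 1454 and 995 on the same arrays. Every HMB signal was above every control signal. The log2 ratios were 2.75, 2.85, 2.14 and 1.84, with a mean of 2.40 ± 0.48 (SD, n = 4) and an FC of 5.26 (limma, adjusted p = 1.70e-04). The other 4 probes gave mean log2 ratios between 2.34 and 2.54, and all 5 were called. Since all except A_69_P003946 overlap in sequence, they are not 5 separate measurements. Probe A_69_P005176, which crosses the genomic gap, had a mean log2 ratio of 2.42 ± 0.37 (SD, n = 4). Probe A_69_P003946, at chr1:137751315-137751374 and apart from the other probes, had 2.54 ± 0.53 (SD, n = 4). In the deposited ratios, sequences from separate stretches of the FGF7 transcript therefore gave values that differed by less than the spread between arrays. The mean log2 ratio of the first probe stayed between 2.24 and 2.58 when each replicate was left out. Its lowest value among all ways of processing was 1.88, with normexp background correction. The other 4 probes were lower with normexp, between 1.32 and 1.69.

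FGF2, the basic FGF, was about doubled. The control signal of probe A_69_P003593 was 938, 840, 1257 and 992 on replicates 1, 2, 3 and 4, and the HMB signal was 2113, 2080, 2505 and 1637. The lowest HMB signal exceeded the highest control signal. The log2 ratios of 1.17, 1.31, 0.99 and 0.72 had a mean of 1.05 ± 0.25 (SD, n = 4), which is an FC of 2.07 (limma, adjusted p = 5.51e-04). The 5 probes ranged from 1.05 to 1.10 and all were called, but since they share 56 of their 60 bases they are repeats of 1 measurement. On each array the log2 ratio of FGF2 was below that of FGF7, a difference that was not tested.

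HGF was called higher, on weak signals. Its control signal was 16.5, 18.9, 36.9 and 36.0 on replicates 1, 2, 3 and 4, and it was well above background on 2 of the 4 arrays, replicates 3 and 4. Its HMB signal was 57.5, 58.3, 52.1 and 58.1, well above background on all 4 arrays. The HMB signals were thus close to each other, and the spread of the ratios lay in the control channel. The log2 ratios were 1.80, 1.63, 0.50 and 0.69, with a mean of 1.15 ± 0.66 (SD, n = 4), a 95% interval of the moderated fit from 0.59 to 1.72 and an FC of 2.23 (limma, adjusted p = 0.00854). The call was lost with normexp (log2 ratio 0.31), without background correction (0.35), without the filter on dim probes (adjusted p = 0.0779), with the methods' t-test (adjusted p = 0.0888) and with limma's treat (adjusted p = 0.0622), and the probe did not pass a filter that asks for both channels. HGF stayed called with each replicate left out, at log2 ratios from 0.94 to 1.37.

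In all 11 probes of FGF2, FGF7 and HGF, the log2 ratios of replicates 1 and 2 were higher than those of replicates 3 and 4. The control signals of FGF7 and HGF were lower on replicates 1 and 2 than on replicates 3 and 4 in each of their probes. No group label separates these arrays, and the cause was not tested. The probes of FGFR2, FGFR1 and FGFR3 that were tested did not divide the arrays in this way, whereas the 3 MET probes did. The overlapping FGF11 probes differed: A_69_P035718 divided the arrays in this way, A_69_P035716 in the opposite direction and A_69_P035717 in neither.

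**Figure D2:**
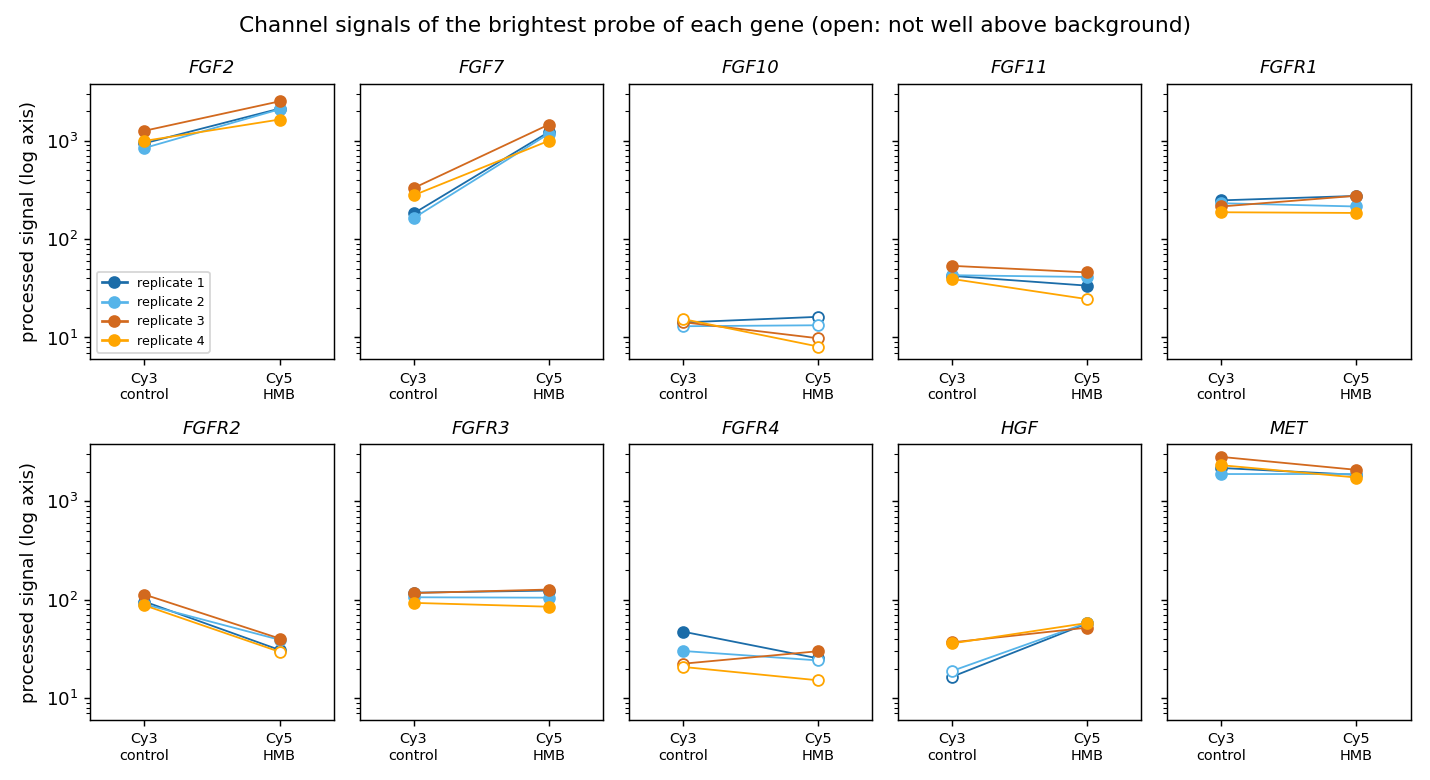
The processed signal of the control (Cy3) and the HMB-treated cells (Cy5) is plotted on a log axis for 1 probe per gene, with a line per array and open points where the signal was not well above background. Lines rise for FGF2, FGF7 and HGF and fall for FGFR2, and the HGF lines start from 16.5 to 36.9 and end between 52.1 and 58.3.

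The remaining ligands of the set gave little or no signal. FGF10, which shares its receptor with FGF7, had 2 probes on chromosome 21, and neither channel of either was well above background on any array. Its control signals were 13.0 to 15.4 in probe A_69_P028701 and 3.62 to 4.43 in A_69_P028702, and its HMB signals were 8.09 to 16.2 and 5.42 to 6.51, so a difference was not detectable. The second probe, at chr21:18399138-18399197 on the plus strand, is printed as an example of a sequence that was read at background level.
FGF10 probe A_69_P028702: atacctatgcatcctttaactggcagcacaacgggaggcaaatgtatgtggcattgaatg

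FGF11, the intracellular family member, was read by 3 probes on the plus strand of chromosome 11 (chr11:49229258-49229319), each shifted by 1 base and with 58 bases in common. Its signals were weak, between 30.6 and 53.4 in the control and between 22.9 and 45.8 with HMB over the 3 probes. The probe with the highest mean signal, A_69_P035717, had log2 ratios of -0.33, -0.06, -0.22 and -0.68. Their mean was -0.32 ± 0.26 (SD, n = 4), and the adjusted p of 0.0478 from limma went with an FC of 1.25, under the limit of 1.3, so the gene was not called. The neighbouring probes fell on both sides of this value, at -0.11 ± 0.33 (SD, n = 4; limma, adjusted p = 0.503) and at -0.44 ± 0.16 (SD, n = 4; limma, adjusted p = 0.00537), the latter being called lower. That call was lost with normexp (-0.09), without background correction (-0.14), with median centring (-0.39) and with treat. The probe with the highest mean signal was called lower without replicate 2 (log2 ratio -0.41, adjusted p = 0.0387) and with centring on the spike-in RNA (-0.74).

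Among the receptors, FGFR2 was the one with a called change. Its 12 probes fell into 3 places on the plus strand of chromosome 1 and did not give the same picture. Probe A_69_P105596, at chr1:10613138-10613197, had control signals of 96.0, 90.1, 113 and 87.8 on replicates 1, 2, 3 and 4. Its HMB signals were 30.9, 39.2, 40.4 and 29.6, well above background on 2 of the 4 arrays. The groups did not overlap. The log2 ratios of -1.63, -1.20, -1.48 and -1.57 had a mean of -1.47 ± 0.19 (SD, n = 4), an FC of 2.77 (limma, adjusted p = 6.82e-05). The neighbouring probe A_69_P105597, at chr1:10613078-10613137, had control signals of 43.8, 34.7, 38.8 and 26.6, well above background on 3 arrays. Its HMB signals of 13.0, 13.6, 11.2 and 15.1 were not well above background on any array, and the probe was not tested. Set against the weakest probe signals that were well above background, it was at least 1.47-fold lower with HMB in the deposited signals. This bound did not hold under other processing, where the log2 ratio of that probe was -0.34 with median centring, -0.29 without background correction and -0.18 with normexp. The FGFR2 call was lost with normexp, where the log2 ratio of A_69_P105596 was -0.37, its log2 ratio was -0.55 without background correction, and the probe did not pass the filter on both channels.

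The other 10 FGFR2 probes formed 2 tiles of 5 probes shifted by 1 or 2 bases. The first tile lay within chr1:10604367-10605001, with each probe spanning 631 genomic bases and so joining separate stretches of the gene. In 4 of its probes neither channel was well above background on any array, with control signals of at most 11.6. In the fifth, A_69_P005139, both channels were well above background on replicates 1 and 2 and on no other array. Its control signals were 87.3, 89.9, 20.0 and 10.8 on replicates 1, 2, 3 and 4, and its HMB signals were 85.2, 100, 11.8 and 9.47. All 5 probes of the tile share 56 bases, so near-identical sequences gave signals that far apart on replicates 1 and 2. The log2 ratios of A_69_P005139 were -0.04, 0.16, -0.75 and -0.19, the last 2 from signals not well above background. The probe was not tested.

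The second tile lay within chr1:10574647-10575843, also a span longer than the probes, so that each joins separate stretches of the gene. Its signals were at background except on replicate 4 of probe A_69_P005182, where the HMB signal was 10210 and the control signal 36.8, which gives a log2 ratio of 8.12. On replicates 1, 2 and 3 the same probe had HMB signals of 6.71 to 7.77. The probes that begin 1 base before and 2 bases after it had HMB signals of 6.39 and 8.74 on replicate 4. They are printed with it, with the 55 bases common to the tile in capitals, since near-identical sequences gave values that far apart on 1 array.
FGFR2 probe A_69_P005183: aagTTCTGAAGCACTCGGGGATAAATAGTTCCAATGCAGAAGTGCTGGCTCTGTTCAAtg
FGFR2 probe A_69_P005182: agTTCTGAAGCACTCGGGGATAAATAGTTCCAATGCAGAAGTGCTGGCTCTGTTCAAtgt
FGFR2 probe A_69_P005181: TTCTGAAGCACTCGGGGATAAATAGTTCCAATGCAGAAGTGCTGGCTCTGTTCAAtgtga

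**Figure D3:**
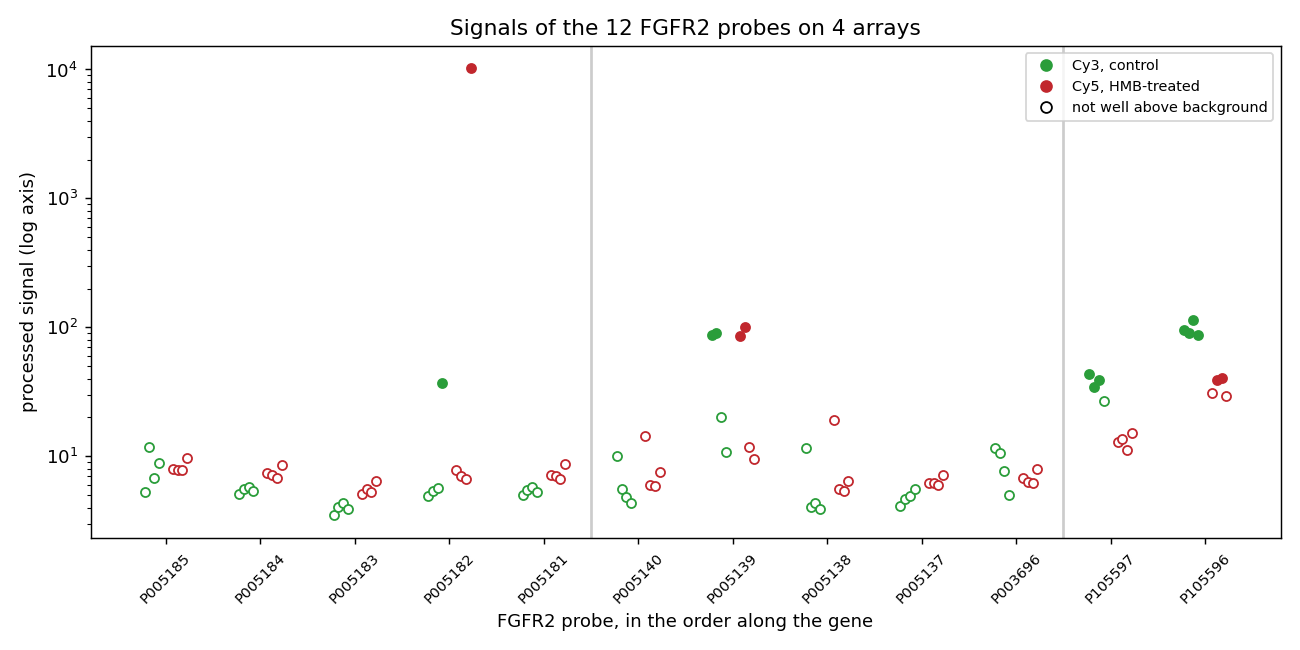
Processed signals of the 12 FGFR2 probes are plotted on a log axis in their order along the gene, with green points for the control, red points for the HMB-treated cells, 1 point per array and open points where the signal was not well above background. The probes P105597 and P105596 at the right carry the lower HMB signals, and the single point at 10210 belongs to P005182 on replicate 4.

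FGFR1, a main FGF receptor of muscle precursor cells, had 1 probe. Its control signals were 247, 231, 214 and 187 on replicates 1, 2, 3 and 4, and its HMB signals were 274, 214, 275 and 184. The ranges overlapped, and the log2 ratio was above 0 on 2 arrays and below 0 on the other 2. The ratios of 0.15, -0.11, 0.36 and -0.02 had a mean of 0.09 ± 0.21 (SD, n = 4; limma, adjusted p = 0.432) and a 95% interval from -0.13 to 0.32, and the log2 of an FC of 1.3 in either direction lay outside that interval. With centring on the spike-in RNA the sign turned, to -0.32.

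FGFR3 gave a similar picture in its probe on the unplaced sequence (chrUn:206268173-206268312, plus strand). The control signals were 118, 106, 117 and 93.0 and the HMB signals 124, 105, 127 and 85.0 on replicates 1, 2, 3 and 4. The log2 ratios of 0.07, -0.02, 0.12 and -0.13 had a mean of 0.01 ± 0.11 (SD, n = 4; limma, adjusted p = 0.927), with a 95% interval from -0.16 to 0.17. With centring on the spike-in RNA it was called lower, at -0.41.

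FGFR4, another FGF receptor of myogenic cells, was read close to background by a probe at chr14:4317238-4317519 on the minus strand. Its control signals were 47.5, 30.2, 22.4 and 20.8, well above background on 2 arrays, and its HMB signals were 25.4, 24.2, 30.0 and 15.2, well above background on 1. The log2 ratios were -0.90, -0.32, 0.42 and -0.45, with both signs present, and they were not tested.
FGFR4 probe A_69_P061181: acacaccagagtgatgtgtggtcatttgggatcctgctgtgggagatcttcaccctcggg

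MET, the receptor of HGF, was not called. Its probe A_69_P001421, at chr4:73440803-73440862 on the plus strand, had control signals of 2182, 1893, 2827 and 2328 on replicates 1, 2, 3 and 4. Its HMB signals were 1859, 1894, 2089 and 1746, which overlap with the control. The log2 ratios of -0.23, 0.00, -0.44 and -0.41 had a mean of -0.27 ± 0.20 (SD, n = 4), with an adjusted p of 0.0485 from limma and an FC of 1.21, under the limit. The other probes, A_69_P003381 and A_69_P003382, adjoin each other within chr4:73438750-73438869. They gave -0.13 ± 0.26 (SD, n = 4; limma, adjusted p = 0.336) and -0.06 ± 0.22 (SD, n = 4; limma, adjusted p = 0.653), each with 2 arrays above and 2 below 0. Over the 3 MET probes, 0 were called, 1 had an unadjusted p below 0.05, and the methods' t-test called 0. With centring on the spike-in RNA all 3 were called lower, at log2 ratios of -0.47 to -0.68.
MET probe A_69_P003382: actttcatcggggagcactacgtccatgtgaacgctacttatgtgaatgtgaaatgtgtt

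The mean values of the tested ligands and receptors can be set side by side. The FGF7 probes rose while the called FGFR2 probe fell. Which splice form of FGFR2 that probe reads is not known here, and the other FGFR2 probes were not tested. These values therefore do not show a change of the form on which FGF7 acts. The FGF2 probes rose while the FGFR1 and FGFR3 probes lay within -0.13 to 0.36 on every array, and HGF was called higher while MET was not called. Differences between genes were not tested.

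The choice of processing set the size and, for some genes, the call. The median log2 ratio of all tested probes was -0.07 as deposited, 0.09 when the arrays were centred on their medians without lowess and -0.48 when they were centred on the spike-in RNA. Spike-in centring subtracts 1 value per array from all ratios of that array, whereas median centring moved genes by different amounts, FGF2 from 1.05 to 1.24 and HGF from 1.15 to 0.75. As reported, 42.5% of the called probes were higher in the HMB-treated cells, and this share was 55.0% with normexp, 60.1% without background correction, 72.3% with median centring, 54.6% with treat and 8.28% with spike-in centring. FGF2 and FGF7 were called higher under every setting run, with log2 ratios from 0.63 to 1.24 and from 1.88 to 2.58, respectively. These ranges are for the probe with the highest mean signal or the mean over probes, and other FGF7 probes went down to 1.32 with normexp.

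**Figure D4:**
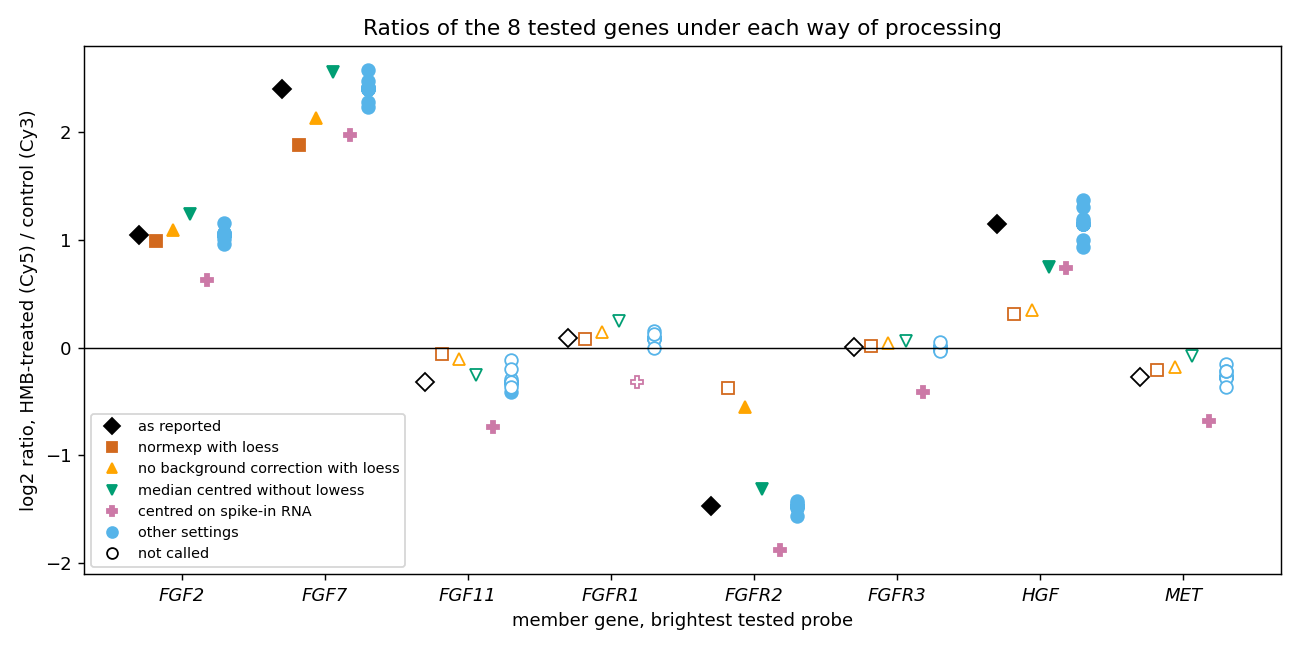
The log2 ratio of the 8 tested genes is plotted under each way of processing, with filled symbols where the gene was called and open symbols where it was not. FGF2 and FGF7 stay filled and above 0 throughout, HGF and FGFR2 move towards 0 with normexp, and the spike-in centring lowers every gene.

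The genes whose ratios lay nearest to those of FGF7 over the 4 arrays, by Euclidean distance among 8817 other symbols, were S100A12 (distance 0.45), C5H1orf54 (0.48) and OSMR (0.58). For FGFR2 they were HSD11B2 (0.32), LPHN2 (0.32) and STON2 (0.37).

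Genes that work with these ligands and receptors were followed in 6 lists of 91 genes, of which 87 were on the array by name and 52 were tested. The calls were 6 higher and 12 lower, which is 34.6% of the tested genes beside the 27.7% of all tested symbols, and the median log2 ratio was -0.06.

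Among the other FGF ligands, 5 of 18 could be tested, and each of these was called: 1 was higher and 4 were lower. FGF18, a secreted FGF known from skeletal growth, had log2 ratios of 2.14, 2.28, 2.22 and 1.89, a mean of 2.13 ± 0.17 (SD, n = 4; limma, adjusted p = 1.17e-05). FGF5, a secreted FGF known for ending hair growth, was called lower (limma, adjusted p = 1.02e-04). As its HMB signal was not well above background on any array, a bound is given, at least 2.35-fold lower with HMB in the deposited signals. The adjusted p belongs to the mean log2 ratio and not to this bound, and FGF5 was tested through its control signal alone. Its log2 ratio was -1.13 with median centring, -0.56 without background correction and -0.35 with normexp, each a smaller difference than that bound. The intracellular FGF13 was called lower at -0.98 ± 0.11 (SD, n = 4; limma, adjusted p = 1.36e-04), and so was FGF21, a circulating metabolic hormone, at -0.92 ± 0.28 (SD, n = 4; limma, adjusted p = 0.00126). FGF12, another intracellular FGF, was the fourth gene called lower, at -0.84. With normexp FGF18 was at 1.27, and FGF5 and FGF13 (-0.37) were not called.

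Of the co-receptors, heparan sulphate carriers and FGF-binding proteins, 9 of 17 were tested, 1 was called higher and 5 lower. SDC4, a syndecan that carries heparan sulphate at the cell surface, was called higher at 0.66 ± 0.14 (SD, n = 4; limma, adjusted p = 9.56e-04), but not with spike-in centring (0.25). FGFBP3, which binds secreted FGF, was lower at -1.03 ± 0.06 (SD, n = 4; limma, adjusted p = 6.82e-05), and at -0.44 with normexp. The glypicans GPC3 (-1.02 ± 0.51, SD, n = 4) and GPC1 (-0.67 ± 0.37, SD, n = 4), which are heparan sulphate carriers anchored by a lipid, were called lower, with adjusted p of 0.00547 and 0.00992 from limma. The HMB signal of GPC3 was well above background on 1 of the 4 arrays. The calls of both were lost with median centring, without the filter on dim probes, with the methods' t-test and with treat, and that of GPC3 also with normexp (-0.13) and without background correction (-0.26). The remaining 2 genes called lower were GPC2 at -0.52 (limma, adjusted p = 0.011), with an HMB signal well above background on 2 of the 4 arrays, and GPC4 at -0.41 (limma, adjusted p = 0.0106). The methods' t-test called 2 of the 9 genes, SDC4 and FGFBP3.

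The enzymes that build or trim heparan sulphate were tested in 8 of 13 cases, with 1 called higher and 1 lower. These were the pair of extracellular sulphatases, SULF1 at 0.68 ± 0.36 (SD, n = 4; limma, adjusted p = 0.00799) and SULF2 at -0.53 ± 0.14 (SD, n = 4; limma, adjusted p = 0.00229). Only 1 of the 2 tested SULF1 probes was called higher, whereas all 5 SULF2 probes were called lower. SULF1 was not called with spike-in centring, without the filter on dim probes, with the methods' t-test or with treat, and SULF2 was not called with normexp, median centring or treat.

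Among the genes of HGF activation and its family, 6 of 10 were tested. MST1R, the receptor of the HGF-like protein and a relative of MET, had log2 ratios of 0.89, 2.42, 2.94 and 1.57, with a mean of 1.96 ± 0.91 (SD, n = 4; limma, adjusted p = 0.00372). Its control signal was well above background on 1 of the 4 arrays, its log2 ratio was 0.46 with normexp and 0.69 without background correction, and the call was lost without the filter on dim probes and with the methods' t-test. HGFAC, a protease that activates HGF, was called lower at -0.59 ± 0.22 (SD, n = 4; limma, adjusted p = 0.00385), but not with normexp, without background correction, with median centring or with treat.

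The adaptors and the Ras-ERK chain below the receptors were tested in 16 of 21 genes, and 14 were not called. SOS2, an exchange factor that activates Ras, was lower at -0.62 ± 0.12 (SD, n = 4; limma, adjusted p = 9.63e-04), and its call was lost with normexp, without background correction and with treat. CBL, a ubiquitin ligase that marks active receptors for breakdown, was called higher at 0.52 ± 0.44 (SD, n = 4; limma, adjusted p = 0.0403). Its call was lost without replicate 2 (0.30), replicate 3 (0.54) or replicate 4 (0.59). It was also lost with normexp (0.16), without background correction (0.24), with median centring (0.46), with spike-in centring (0.10), without the filter on dim probes, with the methods' t-test and with treat.

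Of the feedback inhibitors and ERK target genes, 8 of 12 were tested and 7 were not called. DUSP6 was among these 7, at 0.32 ± 0.41 (SD, n = 4; limma, adjusted p = 0.125) in its probe with the highest mean signal. However, 1 of its 2 tested probes was called higher. SPRED1, an inhibitor of the Ras-ERK chain, had log2 ratios of 1.12, 1.10, 1.03 and 0.76, with a mean of 1.00 ± 0.17 (SD, n = 4; limma, adjusted p = 2.43e-04).

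**Figure D5:**
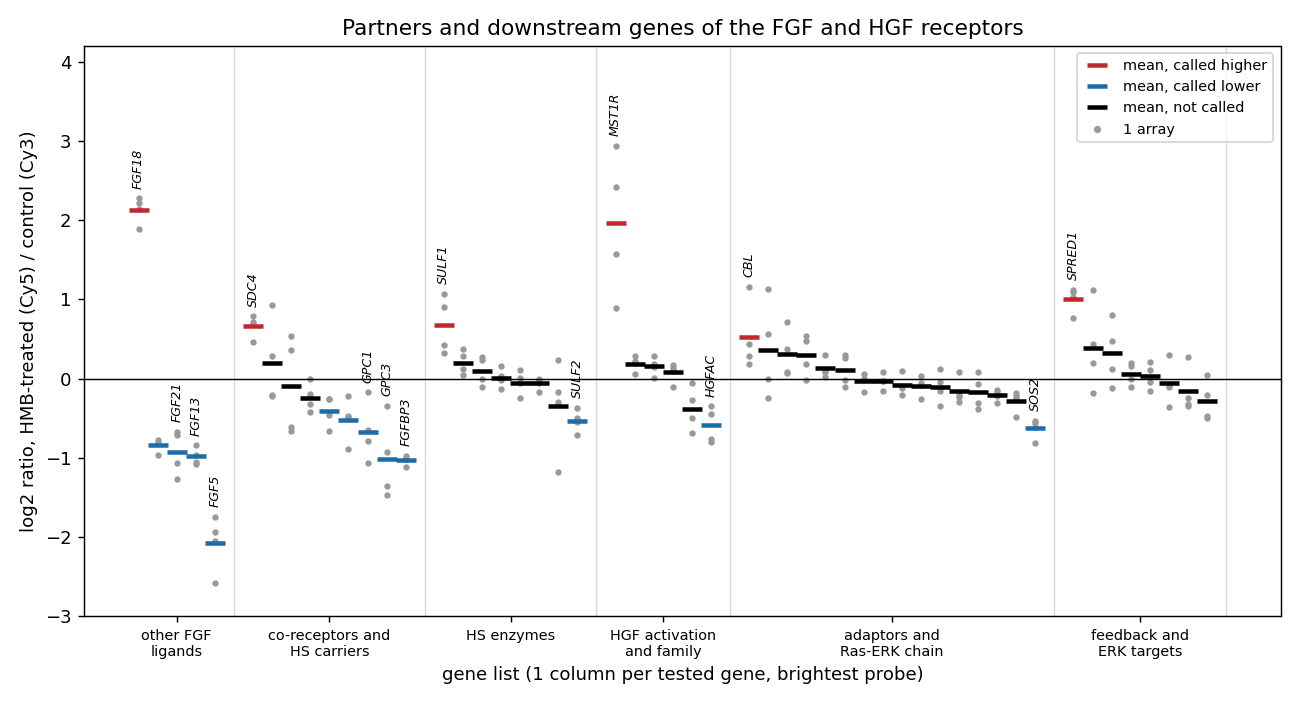
Log2 ratios of the 52 tested genes of the 6 lists are plotted, with grey points for the 4 arrays, a bar for the mean, red for genes called higher and blue for genes called lower. FGF18 and MST1R stand highest, FGF5 stands lowest, and most genes of the Ras-ERK chain lie near 0.

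Markers of the cell types that such a culture could hold were read beside these values. Of all tested symbols, 10.5% were called higher and 17.1% lower. Tested were 5 satellite cell and myoblast, 8 myotube, 8 fibroblast and 3 leukocyte markers. The summed signals given here are carried largely by the brightest genes, such as DES, COL1A2 and PTPRC. Of 6 satellite cell and myoblast markers, 5 were well above background in both channels of every array, while PAX7, the defining satellite cell factor, was not well above it in either channel on any array. Of these 6, 4 were called lower with HMB, and their summed signals were 25053 to 30995 in the control and 9545 to 15186 with HMB. Of 8 myotube markers, 6 were called lower, with sums of 242892 to 265996 and 96333 to 147080, respectively. Of 9 fibroblast markers, 5 were called higher, with overlapping sums of 444565 to 543938 in the control and 443082 to 688914 with HMB. Of 6 smooth muscle and pericyte markers, 3 were tested and 0 were called by limma, with 0 at an unadjusted p below 0.05 and 0 by the methods' t-test, and with sums of 8894 to 12890 and 9528 to 14965, and RGS5 was not well above background. Of 7 leukocyte markers, 2 were called higher, with sums of 15871 to 20203 and 19319 to 30927. These were PTPRC, in which all 6 tested of 15 probes were called higher, and CD68. The other tested leukocyte marker, CD14 (log2 ratio 0.20), was not called. ITGAM, CD3E and LYZ were not well above background, and CSF1R was so only in the control channel of 1 array and was not tested. The endothelial markers PECAM1, VWF, CDH5 and KDR and the adipocyte markers PLIN1, FABP4 and PPARG were not well above background on any array, and their lists summed to at most 83.3 and 52.8, respectively. FGF7, FGF2 and HGF were higher with HMB on the same arrays on which the called muscle markers were lower and the called fibroblast markers higher. The other tested muscle markers, MYOD1 (log2 ratio 0.32), MYOG (0.03) and MYMK (-0.09), were not called. Nor were the other tested fibroblast markers, COL1A1 (0.18), COL1A2 (-0.23) and COL3A1 (0.06). The part of cell composition in the growth factor values was not tested.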

How the data were processed

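Ratios of HMB-treated over control ESC were taken from 4 two-channel Agilent horse arrays, all on 1 slide. Per the file headers, Feature Extraction 10.10.1.1 wrote the deposited log10 ratios after background subtraction and linear and lowess normalization within the array, and it wrote the deposited intensity values and flags of each channel. Probe coordinates are on EquCab1. The deposited log10 ratios were turned to log2 here. Of 43603 non-control probes, 24669 were tested in R 4.3.3 with limma 3.58.1 (intercept model, empirical Bayes, Benjamini-Hochberg), and a ratio was required on at least 3 arrays. Spots marked as non-uniform or population outliers (13 to 35 per array) were left out. Between 55.2% and 61.8% of non-control spots were well above background in a channel. Ratios of pairs of arrays correlated across probes with r of 0.837 to 0.920. The number of arrays limits the precision.

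The members, the gene lists and the markers were chosen with earlier results of these data known. In the lists, 19 genes were named through the transcript description in the files. Named were all members, and in each list among genes called with 1 sign on all arrays, up to 3 that rose most and up to 3 that fell most. FGF12, GPC2, GPC4 and DUSP6, and the markers, were named outside that rule after their values were seen. Where 1 channel of a probe stayed at background on all arrays, a bound was given instead of an FC. It compares means of log2 signals after Aquantile scaling with the weakest signal well above background, and dye bias can affect it. The alternatives were loess after normexp (offset 50) or without background correction, median centring without lowess, centring on spike-in RNA, scaling between arrays, a correction for probe GC, the authors' table of log10 ratios, other filters on dim and marked spots, the methods' t-test, treat, the mean over probes of a gene and each replicate left out. The scripts were tested on simulated data. The sequence and position of the FGFR1 probe are not reported here.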

Additional observations from a re-analysis of the deposited data

Results flagged for a closer look

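On 4 arrays, a value is singled out when its gap to the nearest other value, divided by the range, passes Dixon's critical value, which chance does in about 1 in 20 cases. Among 49 items examined, 4 passed, and all were untested FGFR2 probes. In each of these the ratio was listed as exactly 0 on the other arrays. Any other value would then pass, so the rate of 1 in 20 does not apply to them. The ratio of A_69_P005182 on replicate 4 was 8.12, against 0.00 on the other arrays. Those of A_69_P005138 and A_69_P005140 on replicate 1 were 0.74 and 0.53, and that of A_69_P005185 on replicate 2 was -0.57, each against 0.00 on the other arrays. In the last 3 probes neither channel was well above background on any array. The causes were not tested.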

How the results depend on the processing

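The number of called probes, 7046 as reported, was 3539 with normexp, 4440 without background correction, 4682 with median centring, 16753 with spike-in centring and 2822 with treat. The member genes called lower numbered 1 as reported, 0 with normexp, 0 with the filter on both channels and 4 with spike-in centring, and 1 to 2 with each replicate left out (2 without replicate 2, where FGF11 was added). The count of 3 members called higher was within 1.5 times under every setting run. The partner genes called higher numbered 6 as reported and 3 with spike-in centring, without the filter on dim probes or with the methods' t-test. Those called lower numbered 12 as reported, 4 with normexp, 7 without background correction, 6 with median centring, 31 with spike-in centring and 5 with treat. FGFR3 turned from 0.01 to -0.41 with spike-in centring. The causes were not tested. The slide could not be used as a block, since all arrays lay on 1 slide. The test of each array's ratio against 0 already pairs HMB-treated and control RNA within the array. No further pairing was possible, as no replicate number is shared by separate groups. Weak signals limit HGF, FGFR2, FGF11 and FGFR4, and FGF10 was not measurable at this signal.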
